A study of Arabidopsis thaliana with 22 samples.

Results

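Expansins are small secreted proteins that loosen the plant cell wall at acidic pH. They let cellulose microfibrils slide apart from the other wall polymers without cutting them, so that turgor can stretch the cell. The alpha-expansins are the larger of the main expansin families, and growing leaves, stems and roots each use their own set of them. Their best known partners in acid growth are plasma membrane proton pumps, which acidify the wall when auxin or brassinosteroid calls for elongation.

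The 10 genes described here are EXPA1 (AT1G69530), EXPA3 (AT2G37640), EXPA4 (AT2G39700), EXPA5 (AT3G29030), EXPA6 (AT2G28950), EXPA8 (AT2G40610), EXPA9 (AT5G02260), EXPA10 (AT1G26770), EXPA11 (AT1G20190) and EXPA15 (AT2G03090). They were taken by locus code from a count table of 24185 loci, and all 10 were among the 18149 loci that passed the filter on low counts. Of the other 16 alpha-expansins listed for comparison, 15 were in the table and 5 passed the filter.

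The libraries came from whole Arabidopsis thaliana seedlings of 14 days, of 6 natural accessions (T1080, Mh-0, Lip-0, Got-7, C24 and Ba-1). Per the labels, plants were exposed to ultraviolet light measured at 312 nm or mock-treated, with harvest after 3 h. Of the 12 groups of accession and treatment, 10 had 2 libraries each, and Got-7 UV and T1080 mock had 1 each. The labels name no transgene or mutation. Nothing in them ties replicates to separate cultures, so p-values measure the spread between these libraries, which may be technical.

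The libraries carry the numbers 1 to 22. Libraries 1 to 11 are labelled Ba-1, C24 and Got-7 (6 mock, 5 UV), and libraries 12 to 22 are labelled Lip-0, Mh-0 and T1080 (5 mock, 6 UV). These sets of 11 were compared within 6 genotype blocks. The blocks and sets cut across the labels: each block holds libraries of both sets, so of differently labelled accessions, and 0 of the 6 labelled accessions lie within 1 block. Block A holds Ba-1 mock 1, Ba-1 UV 1 and Lip-0 mock 1. Block B holds Ba-1 mock 2, Ba-1 UV 2, Lip-0 mock 2 and Lip-0 UV 1, and block C holds both C24 mock libraries, Lip-0 UV 2 and Mh-0 mock 1. Block D holds C24 UV 1, Mh-0 mock 2 and Mh-0 UV 1, and block E holds C24 UV 2, Got-7 mock 1, Mh-0 UV 2 and T1080 mock 1. Block F holds Got-7 mock 2, Got-7 UV 1 and both T1080 UV libraries.

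The blocks rest on expression values of other loci, not on labels, and whether the libraries of a block share a genotype was not tested. What separates the sets is not given in the labels. Levels are given as CPM, the count scaled by library total and by the TMM factor of edgeR. AOP3, a glucosinolate side chain gene, stood at 49.8 to 414 CPM in the 4 libraries of block F and at most at 0.313 CPM in the other blocks. ESP, which steers glucosinolate breakdown, stood at 19.3 to 35.2 CPM in block A and at 815 CPM or more elsewhere. AOP3 and ESP are among the loci that mark the blocks, so these levels describe the blocks and do not test them. By correlation over all tested loci, all 20 libraries with another library of their block and set were nearest to it, and 4 of the 20 with a labelled replicate were nearest to that replicate. The blocks rest on the same data, so these correlations are no independent support for them. The sets lie on opposite sides of principal component 1 (61.8% of the variance). The comparison of the sets was chosen with that known, so its p-values are no independent evidence that the sets differ. Totals ran from 3539510 to 20903894 counts per library.

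The labelled tissue was checked against marker genes. Of the 11 root and root hair markers, 7 were under 1 CPM in every one of libraries 1 to 11, and 8 in every one of libraries 12 to 22. RHD6, a regulator of root hair formation, was at 0 in all 22 libraries, so root hair markers were near absent from libraries labelled whole seedling. The summed root markers stood at 42.4 to 60.1 CPM in libraries 1 to 11 and at 31.1 to 47.8 CPM in libraries 12 to 22. Most of this sum came from SCR (mean 31.6 and 21.9 CPM) and SHR (16.7 and 14 CPM), so it describes these genes more than the list. The summed flower markers were at 0.748 to 5.22 and at 0 to 1.58 CPM, with 0 and 1 of the 5 at 0 throughout. The 5 leaf photosynthesis markers summed to 36235 to 44454 and to 20763 to 34615 CPM, none at 0. The part of these shifts in the expansin differences was not tested. In such bulk samples, fewer cells of a type and less RNA per cell cannot be told apart.

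The sequences just upstream of EXPA8, EXPA1 and EXPA10 are shown because these genes had the largest difference between the sets, an intermediate one and one of the smallest. Each is the stretch of 250 bases before the annotated gene start, read 5′ to 3′ on the strand of the gene, from the RefSeq copy of TAIR10.1 (the Columbia accession, not the accessions studied). EXPA8 lies on the minus strand and its window is chr2:16950706-16950955. EXPA1 (chr1:26141476-26141725) and EXPA10 (chr1:9259182-9259431) lie on the plus strand. Capitals mark matches on either strand to any of 5 motifs. The G-box is CACGTG, and an E-box that PIF factors bind is CATGTG. An element bound by brassinosteroid factors is CGTGTG. The auxin response element is TGTCTC, and the TATA box is TATAAA.
EXPA8: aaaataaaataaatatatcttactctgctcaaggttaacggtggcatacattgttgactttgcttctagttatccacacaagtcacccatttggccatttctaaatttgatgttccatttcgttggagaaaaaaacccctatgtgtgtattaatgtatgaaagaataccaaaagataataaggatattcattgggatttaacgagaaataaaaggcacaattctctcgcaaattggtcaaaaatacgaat
EXPA1: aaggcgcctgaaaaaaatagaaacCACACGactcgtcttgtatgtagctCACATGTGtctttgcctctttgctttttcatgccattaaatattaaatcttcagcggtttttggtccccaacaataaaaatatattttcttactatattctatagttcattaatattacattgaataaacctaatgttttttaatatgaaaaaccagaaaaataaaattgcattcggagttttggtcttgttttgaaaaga
EXPA10: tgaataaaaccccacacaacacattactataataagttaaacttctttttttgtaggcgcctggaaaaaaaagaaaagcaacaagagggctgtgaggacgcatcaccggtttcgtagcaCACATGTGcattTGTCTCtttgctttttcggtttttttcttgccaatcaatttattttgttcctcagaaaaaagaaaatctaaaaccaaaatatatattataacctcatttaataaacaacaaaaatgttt

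No letter of the EXPA8 window was marked. The windows of EXPA1 and EXPA10 each held the palindrome CACATGTG, which reads as CATGTG on both strands. This palindrome was singled out after the windows had been read, and 0.375% of the 27443 windows of nuclear protein-coding genes held it. EXPA1 and EXPA10 had the most alike coding sequences of the 10 (79.7% of aligned bases), so their windows may not be independent. Of the 10 expansin windows, 3 held CATGTG (EXPA1, EXPA10 and EXPA11), against 11.1% of all windows. CACGTG was in 0 of 10 (6.49% of all windows), CGTGTG in 2 (5.37%), TGTCTC in 3 (10.9%) and TATAAA in 6 (47.3%). A match is a run of letters and not a shown binding site.

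All 10 expansins were lower in libraries 12 to 22 than in libraries 1 to 11 in the fit over the 6 blocks, by 1.2-fold to 17.4-fold. EXPA4 and EXPA10 were not lower in every single block. The tests were edgeR quasi-likelihood F tests with block as a term, adjusted over 18149 loci. They take the set difference as equal in all blocks, although it varied between blocks for 6 of the 10 genes (below). They also count libraries of the same block and set as independent. Such libraries were alike, so these SEs and p-values may be too small. Most of the transcriptome differed between the sets, with 38.5% of loci called lower and 37.7% called higher, so a call by itself says little about the expansins. Their median log2 difference was −1.29, against −0.01 over all loci tested, and 4.64% of loci had a difference at least that low. The plot of levels by library shows each gene.

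**Figure D1:**
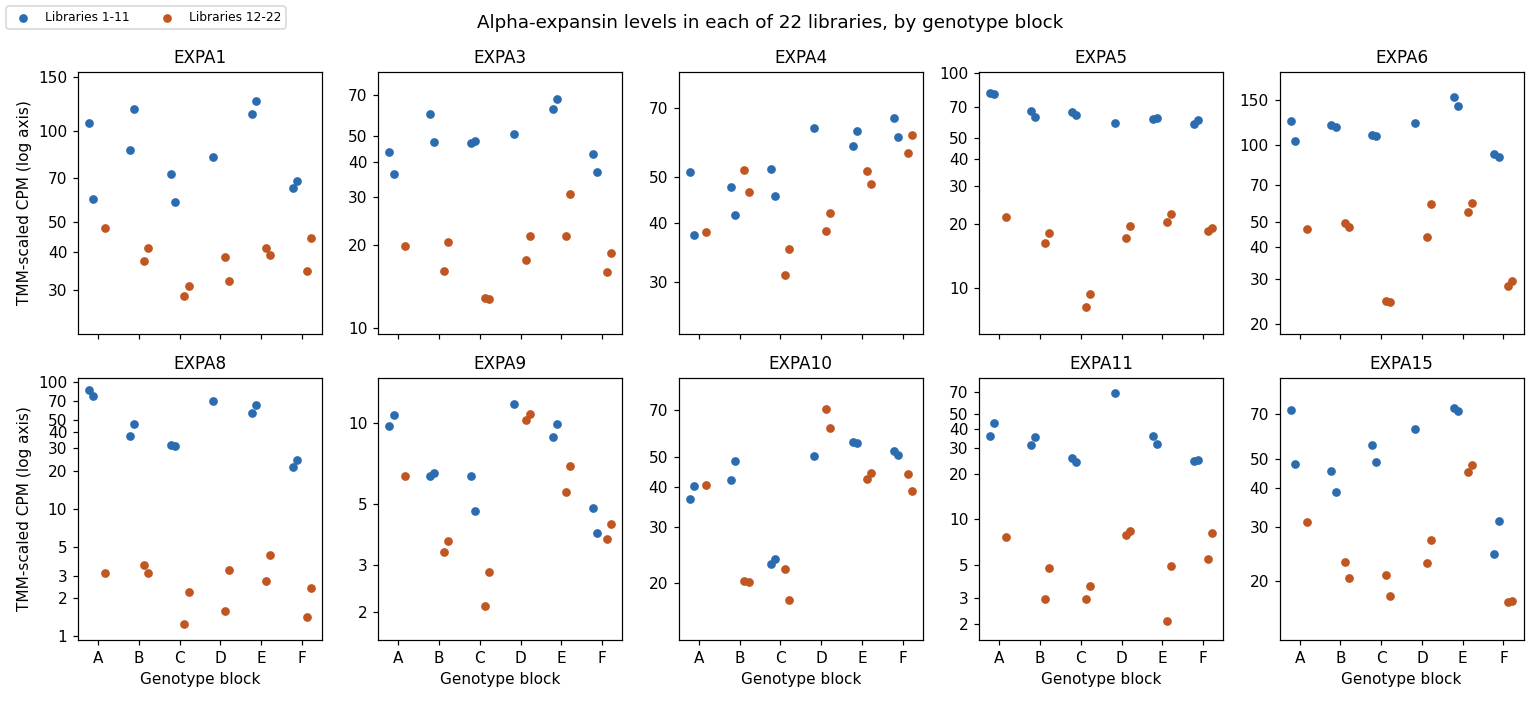
TMM-scaled CPM (log axis, own range in each panel) of the 10 alpha-expansins in each library, by genotype block A to F; blue points are libraries 1 to 11 and orange points libraries 12 to 22. EXPA8 stands at 21.4 to 85.5 CPM in blue and at 1.25 to 4.32 CPM in orange, while the colours of EXPA4, EXPA9, EXPA10 and EXPA15 overlap across blocks.

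EXPA8 showed the largest difference. Its level was 85.5 and 76.5 CPM in Ba-1 mock 1 and UV 1, 37.5 and 46.3 CPM in Ba-1 mock 2 and UV 2, and 32.0 and 31.2 CPM in C24 mock 1 and 2. C24 UV 1 and UV 2 stood at 69.9 and 56.7 CPM, and the Got-7 libraries at 65.7 (mock 1), 21.4 (mock 2) and 24.1 CPM (UV 1). In Lip-0 it was 3.13, 3.66, 3.16 and 1.25 CPM (mock 1, mock 2, UV 1 and UV 2). Every library of the later numbers was therefore far below every library of the earlier ones. The Mh-0 levels were 2.24, 1.57, 3.33 and 2.73 CPM (mock 1, mock 2, UV 1 and UV 2), and those of T1080 4.32 (mock 1), 1.42 and 2.38 CPM. These levels rested on 10 to 65 counts a library. The log2 difference was −4.12 ± 0.13 (SE, 11 libraries against 11, adjusted p = 5.95e-16), and 6 of the 18149 loci had a lower one.

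EXPA11 came next. It stood at 24 to 69.8 CPM (median 31.5) in libraries 1 to 11 and at 2.1 to 8.36 CPM (median 4.89) in libraries 12 to 22. The highest value, 69.8 CPM, was that of C24 UV 1, the single earlier library of block D. The sets did not overlap, and the log2 difference was −2.78 ± 0.15 (adjusted p = 4e-12), with 65 loci lower.

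EXPA5, a gene induced by brassinosteroid and required for full growth, was close to even among the earlier libraries. It stood at 57.8 to 81.2 CPM (median 62.6) in libraries 1 to 11 and at 8.19 to 22.2 CPM (median 18.4) in libraries 12 to 22. Lip-0 UV 2 and Mh-0 mock 1, the later libraries of block C, were lowest at 8.19 and 9.43 CPM, and no other library was under 16.3 CPM. The log2 difference was −1.92 ± 0.11 (adjusted p = 9.1e-12).

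EXPA6 was the most abundant of the 10 in libraries 1 to 11, also per transcript length, at 90.2 to 155 CPM (median 118). In libraries 12 to 22 it stood at 24.5 to 59.6 CPM (median 47.3), a log2 difference of −1.52 ± 0.09 (adjusted p = 5.21e-12). EXPA3 stood at 36.4 to 68.2 CPM (median 47.6) and at 12.7 to 30.7 CPM (median 18.7), a log2 difference of −1.41 ± 0.09 (adjusted p = 1.01e-11). Neither gene overlapped between the sets. EXPA1, which acts in guard cells and in radial swelling before lateral roots form, stood at 58.4 to 125 CPM (median 82.3) and at 28.7 to 47.9 CPM (median 38.5). Its log2 difference was −1.16 ± 0.11 (adjusted p = 1.49e-08), and its sets did not overlap either.

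The sets thus did not overlap for 6 of the 10 genes, whereas 10.8% of all loci were lower in the later set with no overlap. EXPA15 overlapped across blocks but not within any: it stood at 24.5 to 73.3 CPM (median 48.9) and at 17.1 to 47.6 CPM (median 22.9). Its low earlier libraries, Got-7 mock 2 and Got-7 UV 1 at 24.5 and 31.3 CPM, are of block F, and its high later libraries, Mh-0 UV 2 and T1080 mock 1 at 45.1 and 47.6 CPM, are of block E. The log2 difference of EXPA15 was −0.98 ± 0.09 (adjusted p = 7.85e-09). With EXPA15, 7 of the 10 genes were lower in all 6 blocks with no overlap inside a block, against 23.1% of all loci.

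EXPA4, EXPA9 and EXPA10 differed least. EXPA9, the least abundant in the earlier libraries also per transcript length, stood at 3.91 to 11.7 CPM (median 6.53) and at 2.11 to 10.8 CPM (median 4.23), a log2 difference of −0.60 ± 0.11 (adjusted p = 6.49e-05). EXPA10, which enlarges leaves when overexpressed, stood at 23.0 to 55.8 CPM (median 48.3) and at 17.6 to 70.9 CPM (median 40.6), with −0.32 ± 0.12 (adjusted p = 0.0203). EXPA4 stood at 37.6 to 66.9 CPM (median 51.9) and at 31.0 to 61.5 CPM (median 46.6), with −0.26 ± 0.08 (adjusted p = 0.00429). Without the block term none of the 3 passed. The log2 difference was then −0.49 for EXPA9 (edgeR adjusted p = 0.109) and −0.23 for EXPA4 (0.0892), close to the values with it, and −0.18 for EXPA10 (0.513). Without block C, EXPA4 stood at −0.18 (0.0631). EXPA10 stood at −0.13 (0.156) without block B, and kept its size but not its call without C (−0.31, 0.061), E (−0.30, 0.0738) or F (−0.31, 0.0614).

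If the labels hold, the accession is the unit of this comparison. Mean log2 levels of Lip-0, Mh-0 and T1080 were below those of Ba-1, C24 and Got-7 for all 10 genes, from −0.23 for EXPA4 to −3.88 for EXPA8 on the log2 scale. In an exact two-sided permutation test over accessions (3 against 3), 7 genes reached p = 0.1, the smallest this design allows. They were the 6 genes without overlap and EXPA15, and 30.7% of all loci did so in this direction. The p-values were 0.2 for EXPA9, 0.3 for EXPA4 and 0.6 for EXPA10.

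Levels were compared between genes per kilobase of the longest RefSeq transcript (1315 to 1670 bases). In libraries 1 to 11 the median was highest for EXPA6 at 74.2 CPM per kb, then EXPA1 at 56.4, EXPA5 at 43.9 and EXPA8 at 34.9. EXPA4 (34.6), EXPA15 (34.1), EXPA10 (31.4), EXPA3 (28.5) and EXPA11 (24) followed, with EXPA9 at 4.8. In libraries 12 to 22 EXPA4 led at 31.1 CPM per kb, with EXPA6 at 29.7 and EXPA1 and EXPA10 at 26.4 each. EXPA15 (16.0), EXPA5 (12.9) and EXPA3 (11.2) lay between these and EXPA11 (3.72), EXPA9 (3.11) and EXPA8 (2.06). EXPA8 thus went from the fourth place to the lowest, while EXPA4 went from the fifth to the highest. EXPA9 in the earlier order lay wholly below its neighbour EXPA11, and EXPA11 in the later order wholly below EXPA3. The other neighbours in each order had ranges that overlap.

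The coding sequences of the 10 genes shared 61.1% to 79.7% of aligned bases (median 67.4% over 45 pairs), with EXPA1 and EXPA10 the closest. The longest run of identical bases between any of them and another alpha-expansin transcript was 33 bases, shared by EXPA10 and EXPA15. The sources used here do not state the read length. No annotated gene overlapped any of the 10.

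The difference between the sets also varied between blocks, as an F test of the 5 interaction terms showed for 6 of the 10 genes, against 33.5% of all loci. EXPA5 and EXPA6 had their largest difference in block C, at −2.89 ± 0.10 and −2.15 ± 0.10. In the other 5 blocks EXPA5 ran from −1.54 to −1.91 and EXPA6 from −1.21 to −1.66. Their earlier libraries of block C (mean 64.8 and 109 CPM) were within the range of the other blocks, and their later ones were lowest of the 6 blocks, at 8.81 and 24.6 CPM. The adjusted p of the interaction was 6.82e-07 for EXPA5 and 0.000134 for EXPA6.

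EXPA10 even changed direction between blocks (interaction adjusted p = 1.09e-06). In block B it was lower in the later libraries (45.3 to 20.2 CPM, log2 −1.16 ± 0.11, edgeR adjusted p = 8.28e-10). In block D it was higher there, at 50.4 CPM in C24 UV 1 and 70.9 and 61.6 CPM in Mh-0 mock 2 and UV 1 (log2 0.38 ± 0.11, edgeR adjusted p = 0.00417). The value in block D rests on that single earlier library. In blocks E and F it was modestly lower, at −0.36 ± 0.10 and −0.31 ± 0.10, and in A and C it did not pass (0.05 ± 0.13 and −0.22 ± 0.12). EXPA4 was lower in blocks C, D and E, at −0.56 ± 0.11, −0.65 ± 0.12 and −0.27 ± 0.11, of which the value in D again rests on 1 earlier library. It did not pass in A, B or F, with 0.14 ± 0.11 in B (interaction adjusted p = 0.00483).

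EXPA11 ran from −1.86 ± 0.21 in block F to −3.32 ± 0.23 in block E (interaction adjusted p = 0.0118), and was lower in every block. That interaction ended without Got-7 mock 2 (0.0631) or T1080 UV 2 (0.106), both of block F. EXPA15 ran from −0.64 ± 0.14 in E to −1.41 ± 0.16 in C (0.0463). Its interaction ended without C24 mock 1, Got-7 mock 1, Lip-0 mock 2, either Lip-0 UV library, either Mh-0 mock library, Mh-0 UV 2 or any T1080 library (adjusted p from 0.0534 to 0.118). EXPA8 stayed between −3.56 ± 0.26 in F and −4.67 ± 0.28 in A, and the interaction did not pass for it (0.119), nor for EXPA1 (0.334), EXPA3 (0.119) or EXPA9 (0.0599). It did pass for EXPA1 without Ba-1 mock 1 (0.0277) and for EXPA8 without Mh-0 UV 1 (0.0292). It passed for EXPA3 without Ba-1 UV 2 (0.0471), Mh-0 UV 2 (0.0168) or T1080 mock 1 (0.0299), and for EXPA9 without Ba-1 mock 1 (0.0485) or C24 mock 2 (0.0489).

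**Figure D2:**
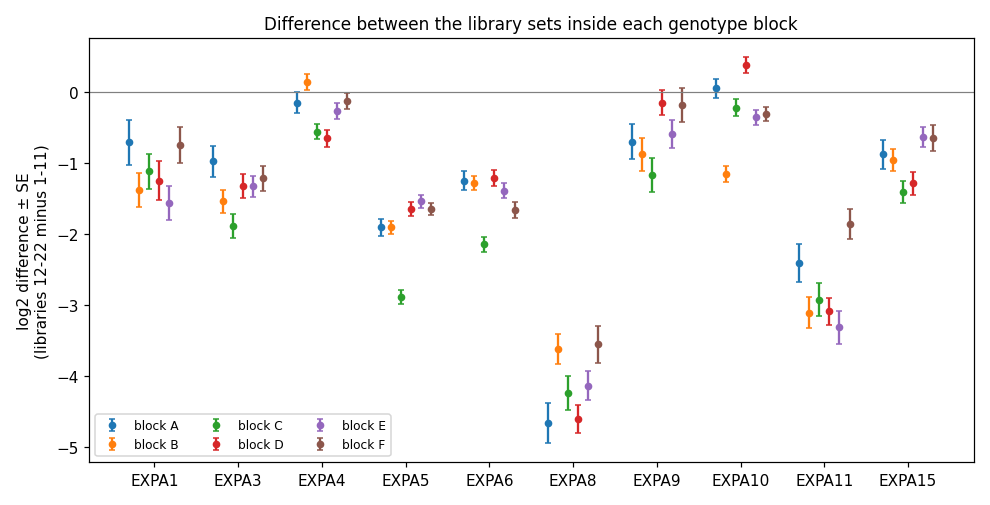
Log2 difference (libraries 12 to 22 minus 1 to 11) of each alpha-expansin inside each genotype block, with its SE from a fit of 12 cells of set and block; cells hold 1 or 2 libraries. EXPA5 and EXPA6 are lowest in block C, and EXPA10 runs from −1.16 in block B to 0.38 in block D.

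Levels were also compared between blocks, with the set as a term. An F test of the 5 block terms passed for 9 of the 10 genes and missed for EXPA5 (adjusted p = 0.08). With 72% of all loci passing, this count says little about the expansins. The test takes the set difference as equal in all blocks, although the interaction passed for 6 of the 10. EXPA9 had the smallest adjusted p of the 10 (9.81e-07). Its 3 libraries of block D stood at 11.7, 10.2 and 10.8 CPM and its 4 libraries of block F at 4.84, 3.91, 3.74 and 4.23 CPM, whichever set they were of. EXPA15 stood at 45.1 to 73.3 CPM in block E and at 17.1 to 31.3 CPM in block F, without overlap. In EXPA10, the 4 libraries of block C stood at 17.6 to 23.8 CPM and the 3 of block D at 50.4 to 70.9 CPM. The block difference of EXPA1 (adjusted p = 0.0318) ended without C24 mock 2 (0.0757), C24 UV 2 (0.0581), Got-7 mock 1 (0.0604), Lip-0 UV 2 (0.0705) or Mh-0 mock 1 (0.0539). That of EXPA5 passed without C24 mock 1 (0.0212) or C24 mock 2 (0.0323).

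Within a set of 11 libraries the 10 genes often had high and low values in the same libraries. Pearson r between log2 levels had a median of 0.33 over the 45 pairs in libraries 1 to 11 and of 0.50 in libraries 12 to 22, and was positive in 36 and 43 pairs. EXPA8 and EXPA9 were closest in the earlier set (r = 0.94, Spearman rho 0.91, n = 11), and EXPA9 and EXPA10 in the later set (r = 0.87, rho 0.86). EXPA4 and EXPA5 ran opposite in the earlier set (r = −0.65, rho −0.78). Against the mean profile of the 10, r in the earlier set ran from −0.02 (EXPA5) to 0.84 (EXPA6). Libraries of a block resemble each other, so these are descriptions over points that may not be independent. Pairs of other loci were not compared, so whether the 10 genes move together more than others was not tested.

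The mean profile of the 10 genes averages their log2 levels, each standardized over all 22 libraries. Genes with a large difference between the sets can therefore weigh less within a set. The loci most like this profile in both sets were then picked by the smaller of the r in each set. They were mtACP3 (r = 0.93 in each set), a mitochondrial acyl carrier protein gene, and sks4 (0.92 and 0.90), of the SKU5-similar family. AT4G19160 had 0.95 and 0.90, DUT1 0.92 and 0.90, and AT5G48360, annotated as a formin homology protein, 0.88 and 0.91. Spearman rho ran from 0.74 to 0.96. All 5 were lower in libraries 12 to 22, by −0.28 ± 0.05 for AT5G48360 to −1.05 ± 0.09 for DUT1 on the log2 scale. Among all loci, 38.5% were called lower. The 5 were picked from these same data for their likeness to the expansins, so the count is only a description.

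The comparison the labels state, UV against mock, gave another picture. With group means by label, 0 loci passed for the mean UV effect over the 6 accessions in edgeR (0% of loci, 504 at an unadjusted p under 0.05) and none of the 10 expansins was among those 504. Their mean log2 differences ran from −0.28 ± 0.18 for EXPA15 to 0.19 ± 0.26 for EXPA11, each with an adjusted p of 1. EXPA8 stood at −0.17 ± 0.25. Of the 10 labelled groups of 2 libraries, 2 lie in 1 block, and 72% of all loci differed between blocks. The spread within the labelled groups thus takes in differences between blocks. The absence of calls therefore does not show that UV left the expansins unchanged. Each labelled accession has its mock and UV libraries in the same set, so the labelled UV effects hold nothing of the difference between the sets.

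**Figure D3:**
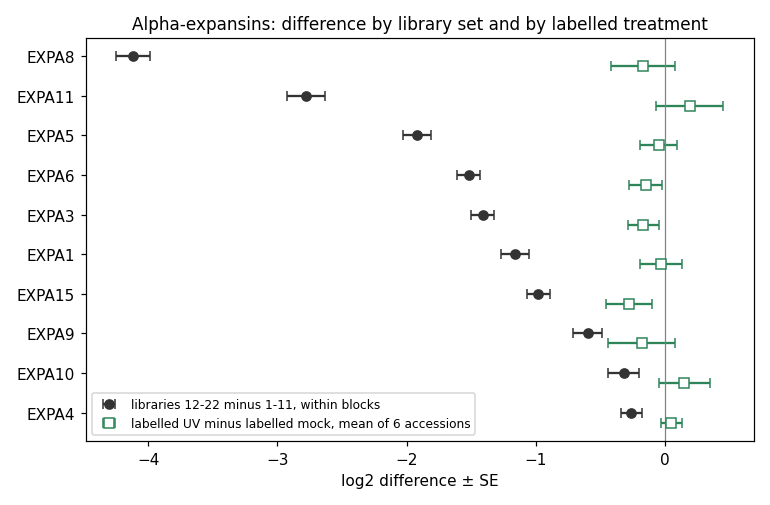
Log2 difference ± SE of each alpha-expansin: filled circles are libraries 12 to 22 minus 1 to 11 within genotype blocks, open squares labelled UV minus labelled mock averaged over 6 accessions. The circles run from −4.12 (EXPA8) to −0.26 (EXPA4), and the squares from −0.28 to 0.19.

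Within single accessions, none of the 10 genes passed for UV against mock. The share of loci called was 0.27% in C24, 0.00551% in T1080 and 0% in Ba-1, Got-7, Lip-0 and Mh-0, where 311, 305, 721 and 1750 loci had an unadjusted p under 0.05. EXPA15 in T1080 had the smallest p of the 10 genes (edgeR unadjusted 0.00804, adjusted 0.54), at 47.6 CPM in mock 1 and 17.1 and 17.2 CPM in UV. T1080 mock 1 is of block E and both UV libraries are of block F. EXPA10 in C24 was at 23.0 and 23.8 CPM in mock and 50.4 and 55.8 CPM in UV (log2 1.18 ± 0.47, edgeR adjusted p = 0.262). There the mock libraries are of block C and the UV libraries of blocks D and E. It passed without Mh-0 mock 1 (0.0485) or Mh-0 mock 2 (0.0491), and in Mh-0 itself EXPA10 passed without Mh-0 mock 2 (log2 1.57, adjusted p = 0.0445). The part of the blocks in these labelled differences was not tested.

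The rest of the alpha-expansin family was mostly silent here. EXPA22, EXPA23, EXPA24, EXPA25 and EXPA26 had 0 counts in all 22 libraries, where a count of 3 would equal 0.144 to 0.848 CPM. The root hair genes EXPA7 and EXPA18 had at most 1 count in a library and 0 in 20 libraries each. EXPA2, EXPA17 and EXPA21 had at most 6, 3 and 9 counts and were not tested, and EXPA19 was not analysed here.

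Of the 5 other alpha-expansins tested, 2 were lower and 2 higher in libraries 12 to 22, against 38.5% and 37.7% of all loci. EXPA13 was at 16.2 ± 2.14 and 12.6 ± 1.92 CPM (mean ± SD, 11 libraries each, log2 −0.40 ± 0.08), and EXPA16 at 13.1 ± 6.07 and 10.0 ± 3.08 CPM (−0.50 ± 0.16). EXPA20 was higher, at low levels of 1.24 ± 0.526 and 2.01 ± 0.678 CPM (log2 0.64 ± 0.23, edgeR adjusted p = 0.0142). EXPA14 was at 2.38 ± 1.91 and 2.09 ± 0.822 CPM and did not pass (0.10 ± 0.19). EXPA12 was nearly absent from the earlier libraries: it had 1 count in all of libraries 1 to 11 together and 149 in libraries 12 to 22, from 4 to 28 in each. Scaled to the total counts this is a ratio of 127 (95% exact interval 22.4 to 5030, counting error only).

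Beta-expansins are the other main family of wall-loosening expansins, and expansin-like genes are related by sequence. Of the 6 genes of these families tested, 5 were lower, 0 were higher and EXLA3 did not pass, with a median of −1.66. Over all loci, 38.5% were called lower and 37.7% higher. EXPB1 stood at 11.9 ± 4.61 and 2.65 ± 1.27 CPM (log2 −2.30 ± 0.12), EXPB3 at 44.7 ± 6.41 and 15.7 ± 5.27 CPM (−1.54 ± 0.12), and EXLA2 at 6.78 ± 2.21 and 1.9 ± 0.697 CPM (−1.78 ± 0.15).

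XTH genes encode the enzymes that cut and rejoin xyloglucan, the tether between cellulose fibrils. Of the 21 tested, 13 were lower, 5 higher and 3 did not pass, with a median of −0.94. The shares over all loci were 38.5% lower and 37.7% higher. XTH6 went from 66.2 ± 14.6 to 17.7 ± 6.15 CPM (log2 −1.86 ± 0.08) and XTH31 from 71.9 ± 38.5 to 14.9 ± 7.99 CPM (−2.29 ± 0.10). XTH18 moved the other way, from 0.589 ± 0.792 to 51.3 ± 25.4 CPM (6.37 ± 0.24). XTH genes thus differed in both directions, as did the other alpha-expansins tested (2 lower and 2 higher). The 10 expansins, chosen with earlier results known, were all lower.

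The tested genes of acid growth and of cellulose synthesis were called lower throughout, against 38.5% of all loci. All 8 tested genes of proton pumps and SAUR19-type proteins, which relieve the pumps from inhibition, were lower, with a median of −2.66. The pump AHA2 stood at 309 ± 24.4 and 198 ± 26 CPM (log2 −0.62 ± 0.05). The pumps AHA1 and AHA3 were at −0.39 ± 0.04 and −0.49 ± 0.05. The list median is set by the tested SAUR genes, which were at −2.36 ± 0.27 (SAUR23) or lower. SAUR21 and SAUR20 were at −2.95 ± 0.28 and −3.69 ± 0.37, at levels of 3.53 and 1.54 CPM in libraries 1 to 11, and reads of such close SAUR copies may be shared. All 7 tested cellulose genes were lower (median −0.85), among them COB, which orients microfibrils, at 196 ± 16.6 and 96.5 ± 9.14 CPM (−1.01 ± 0.04). The primary wall synthases CESA1 and CESA6 were at −0.85 ± 0.03 and −0.98 ± 0.04.

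Of 25 tested growth regulators that act upstream of expansins, 15 were lower, 5 were higher and 5 did not pass (median −0.56). Among all loci, 38.5% were lower and 37.7% higher. PRE1, a helix-loop-helix promoter of elongation, went from 7.3 ± 2.48 to 0.557 ± 0.257 CPM (log2 −3.62 ± 0.18). RGA, a DELLA protein that represses growth, went from 80.9 ± 9.01 to 33.0 ± 5.37 CPM (−1.27 ± 0.06), so promoters and repressors of growth were both among the lower genes. The auxin response factor gene ARF7 was higher, at 52.9 ± 6.4 and 80.0 ± 12.1 CPM (0.61 ± 0.04). In the labelled UV comparison none of the genes of these 6 lists passed, and the list medians ran from −0.05 to 0.06.

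**Figure D4:**
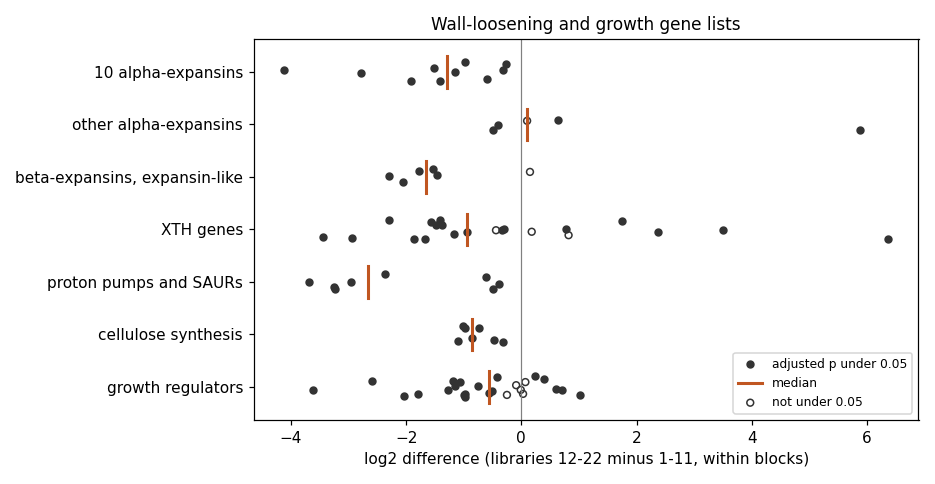
Log2 difference (libraries 12 to 22 minus 1 to 11, within blocks) of each tested gene of 7 lists; filled points passed at an adjusted p under 0.05, open points did not, and orange bars are list medians. The 10 alpha-expansins, the proton pump and SAUR list and the cellulose list lie wholly below 0, whereas XTH genes reach from −3.45 to 6.37.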

How the data were processed

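The authors deposited 1 table of raw counts (whole numbers per locus, not normalized, from the values) for 22 libraries. The submitters' processing notes name FastQC, TopHat, TAIR9 and TAIR10 without roles or versions. The sources used here name no counting program, annotation or strand setting. All columns matched a sample by number (0 unmatched). Symbols, transcripts and promoters came from RefSeq TAIR10.1 by locus code.

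The filter kept loci reaching 1 CPM in 2 or more libraries. The main tests used edgeR 4.0.16 under R 4.3.3 (TMM factors of 0.936 to 1.1, robust quasi-likelihood F tests, Benjamini-Hochberg over all loci of a contrast, called under 0.05), with block plus set, 12 cells of set and block, or 12 labelled group means. A pseudocount of 0.5 was used for log2 levels. The pipeline was tested on simulated data. Alternatives were DESeq2 1.42.0, limma 3.58.1 voom, other size factors, no filter, other block terms and leaving out libraries or blocks. SEs were taken from the F statistic. Paired libraries of a block and set differed beyond sampling noise (chi-square per degree of freedom 1.67 to 7.05).

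The members, blocks, lists and rules were chosen with earlier results of these data known. All 10 members are described, and up to 3 genes of each other list were named by smallest p in the set comparison, with others named after their values were seen.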

Additional observations from a re-analysis of the deposited data

Results flagged for a closer look

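The difference between libraries 12 to 22 and 1 to 11 was not the same in all genotype blocks for 6 of the 10 expansins, by the F test of the interaction in edgeR. The adjusted p was 6.82e-07 for EXPA5, 1.09e-06 for EXPA10, 0.000134 for EXPA6, 0.00483 for EXPA4, 0.0118 for EXPA11 and 0.0463 for EXPA15. Since 33.5% of all loci passed the same test, this share is given as a description. EXPA10 is the gene whose direction turned, from −1.16 ± 0.11 in block B to 0.38 ± 0.11 in block D, where the earlier set has 1 library. No labelled group had enough libraries to be screened for single outlying values.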

How the results depend on the processing

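All 10 expansins were called lower with edgeR, DESeq2, limma voom, other size factors, no filter, 12 cells and without each of the 22 libraries (10 to 10 called, 0 to 0 higher). For 20 of the 22 libraries, another of the same block and set stayed in, so leaving out 1 library is a weak check. Without the genotype block, or without single blocks, EXPA4, EXPA9 or EXPA10 no longer passed, as given above, and no direction turned. The loci called for the set difference ran from 13544 to 13772 without 1 library, against 13834.

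The interaction was called for 4 to 8 expansins (4594 to 6850 loci) and the block difference for 8 to 10 (12044 to 13144 loci) without 1 library. The number of expansins at the smallest permutation p was 7 to 8. Without C24 UV 1 or Lip-0 mock 1 the interaction could not be fitted, and without Got-7 UV 1 or T1080 mock 1 the mean UV effect could not.

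The mean labelled UV effect had 2 loci with DESeq2 and 0 to 7 without 1 library, with 0 to 0 expansins. Its sign, uncalled throughout, turned without single libraries for 5 expansins. The values ran from −0.12 to 0.06 for EXPA1, 0 to 0.1 for EXPA4, −0.16 to 0.03 for EXPA5, −0.29 to 0.02 for EXPA9 and −0.04 to 0.33 for EXPA11. Without 1 library the loci called ran from 0 to 28 in Ba-1, 0 to 271 in C24, 0 to 6 in Got-7, 0 to 15 in Lip-0, 0 to 486 in Mh-0 and 0 to 46 in T1080, with 0 to 1 expansins higher in C24 and Mh-0 and 0 elsewhere. The cause of these shifts was not tested.

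With the replicate number as a block, C24 had 343 loci against 49 and no other UV count moved. Deviations of same-numbered libraries correlated at 0.62 in Ba-1, 0 in C24, −0.34 in Lip-0 and −0.28 in Mh-0, so the numbers do not pair the libraries across the study. In Ba-1 the same-numbered libraries are each other's nearest and lie in the same block. Low counts limit EXPA8 and EXPA11, with 10 to 65 and 23 to 163 counts in libraries 12 to 22. They also limit EXPA9, with 18 to 234 counts in libraries 1 to 11 and 25 to 210 in libraries 12 to 22.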
